A study of Mus musculus with 6 samples.

Results

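The endothelin system was followed here through 6 of the 54418 gene identifiers counted in mammary epithelial cells of mice with and without *Glis2*. The 6 genes are the ligand genes *Edn1*, *Edn2* and *Edn3*, the receptor genes *Ednra* and *Ednrb*, and *Ece1*, the gene of the main converting enzyme. All 6 were found by symbol, and 5 of them passed edgeR's filter on low counts, with *Edn2* left out by it. *Edn3* was selected on its difference in these same libraries, and the other members were added because they belong to the same system. The difference of *Edn3* between the genotypes is therefore given as a description, and where counts of called members include it, nothing is read from its call. The libraries came from 4-week-old C57BL/6 females, 3 of them *Glis2*+/+ (labelled WT) and 3 *Glis2*-/- (labelled KO, a germline knockout, so that every cell of the mouse carried it). Each library held RNA from 1 mouse. The glands were dissociated, stained for dead cells, for TER-119, CD31 and CD45 (antigens of red blood cells, endothelial cells and leukocytes) and for the epithelial sorting antigens CD24 and CD49f, and sorted by flow cytometry. The question of the comparison was what the loss of GLIS2, a zinc finger transcriptional repressor, changes in the RNA of these cells.

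Endothelins are short peptides that are cut out of longer precursors, first by furin-type proteases and then by membrane-bound converting enzymes of which ECE1 is the best known. They act on G protein-coupled receptors. EDNRA binds endothelin-1 and endothelin-2 far better than endothelin-3, whereas EDNRB binds all of them alike. Endothelin-1 is the classic vasoconstrictor peptide of endothelial cells, EDNRA is the contractile receptor of vascular smooth muscle, and EDNRB is abundant in endothelial cells, which also use it to clear the peptide. Endothelin-3 and EDNRB are best known for the neural crest, where their loss leaves the skin without melanocytes and the distal gut without neurons.

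The results turn on telling the 3 ligand genes apart, so the stretch that encodes each mature peptide is shown. In each gene it lies in exon 2 of 5, spans 63 bases and encodes 21 residues. The positions are chr13:42303649-42303711 for *Edn1*, chr4:120161951-120162013 for *Edn2* and chr2:174761749-174761811 for *Edn3*, all on the plus strand of GRCm38 with GENCODE M21 exons. Capitals mark the bases that differ from *Edn1*.
Edn1: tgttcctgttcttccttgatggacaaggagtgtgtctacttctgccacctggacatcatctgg
Edn2: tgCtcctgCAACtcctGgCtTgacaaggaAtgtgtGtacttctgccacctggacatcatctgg
Edn3: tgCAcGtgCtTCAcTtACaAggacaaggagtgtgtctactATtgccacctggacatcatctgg
The *Edn2* stretch differed from that of *Edn1* at 10 bases and 3 residues, and the *Edn3* stretch at 13 bases and 6 residues. Most capitals of *Edn3* stand in the first part of the stretch, and the end, which encodes the tail that the receptors recognise, is written the same way in all 3 genes. The longest run shared by *Edn3* with either of the others was 21 bases, shorter than the 40-base reads. Of the windows of 40 bases in the annotated transcripts, 0 of 2100 of *Edn1*, 0 of 1423 of *Edn2* and 0 of 4141 of *Edn3* occurred in a transcript of another gene. The corresponding shares were 0.377% for *Ednrb*, 0.229% for *Ece1* and 1.03% for *Ednra*, the last all shared with the antisense transcript *4933431K23Rik*.

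The libraries held between 24996524 and 31393917 counts. *Glis2* itself was counted in all of them, at 21.7, 23.2 and 19.6 CPM (counts scaled to library size by TMM) in *Glis2*+/+ and 10.1, 17.0 and 16.3 CPM in *Glis2*-/- libraries, with a log2 fold change of −0.57 (SE 0.22, edgeR adjusted p = 0.906). As TPM rescaled over protein-coding genes it was not lower, at 18.4 to 38.4 in *Glis2*+/+ and 30.2 to 30.6 in *Glis2*-/- libraries, so the genotypes rest on the labels. The cells carried epithelial markers in every library, with the luminal keratin gene *Krt8* at 1238 to 1950.0 CPM and the basal keratin gene *Krt14* at 327 to 631 CPM. Endothelial genes were present as well, although CD31 was among the stained antigens, with *Pecam1*, the gene of CD31, at 44.6 to 198 CPM. In bulk RNA, fewer cells of a type and less RNA per cell cannot be told apart.

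*Edn3* (ENSMUSG00000027524, chr2:174760619-174784042, plus strand) was almost missing from the *Glis2*-/- libraries. It had 98, 50 and 115 counts in the *Glis2*+/+ replicates 1 to 3, and 0, 3 and 2 counts in the *Glis2*-/- replicates. Each *Glis2*-/- library was at or under 3 counts, the limit that a count of 0 allows, and each *Glis2*+/+ library was well above it. On the CPM scale the values were 3.18, 1.75 and 4.41 in *Glis2*+/+ and 0, 0.100 and 0.0639 in *Glis2*-/- cells, or 3.11 ± 1.33 against 0.0547 ± 0.0507 (SD, n = 3 each). The lowest *Glis2*+/+ library, replicate 2, still stood above every *Glis2*-/- library. Over the 263 counts of one genotype and the 5 of the other, the normalised level was 53.1-fold lower in *Glis2*-/- cells (95% exact counting interval 22.5 to 165), or 1.88% of the *Glis2*+/+ level. The interval covers counting error only and not the spread between mice.

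*Edn1* (ENSMUSG00000021367, chr13:42301476-42307990, plus strand) was the most abundant ligand transcript and did not separate the genotypes. It had 358, 189 and 517 counts in *Glis2*+/+ and 190, 250 and 241 counts in *Glis2*-/- libraries. The corresponding CPM were 11.6, 6.62 and 19.8 in *Glis2*+/+, and 7.59, 8.35 and 7.70 in *Glis2*-/- cells. The *Glis2*-/- libraries lay close together, whereas the *Glis2*+/+ libraries ranged from the lowest to the highest value of all 6. The means were 12.7 ± 6.68 and 7.88 ± 0.407 CPM (SD, n = 3 each), with a log2 fold change of −0.69 (SE 0.36, 95% interval −1.52 to 0.14, edgeR adjusted p = 0.919). The size rested on single mice, since the log2 fold change was −0.21 without *Glis2*+/+ replicate 3 and −0.99 without *Glis2*+/+ replicate 2.

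*Edn2* (ENSMUSG00000028635, chr4:120161206-120167360, plus strand) was near the detection limit. It had 6, 0 and 0 counts in *Glis2*+/+ and 0, 21 and 17 counts in *Glis2*-/- libraries. The gene was thus seen in 3 of the 6 libraries, and both genotypes included libraries at 0. A count of 0 in these libraries allows a level of up to 0.105 to 0.120 CPM. The summed counts of 6 and 38 gave a normalised level 6.28-fold higher in *Glis2*-/- cells (95% exact counting interval 2.63 to 18.2), which again leaves out the spread between mice. All counts of the *Glis2*+/+ side came from replicate 1, so that this 1 mouse set the fold, and without it the *Glis2*+/+ sum was 0. The main test left the gene out, because it did not pass the filter. In the 6 alternatives that tested it, *Edn2* was called in 0, with adjusted p between 0.800 and 1.000 from edgeR or DESeq2, and the edgeR log2 fold change moved from 2.58 without a filter to 6.56 without *Glis2*+/+ replicate 1.

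**Figure D1:**
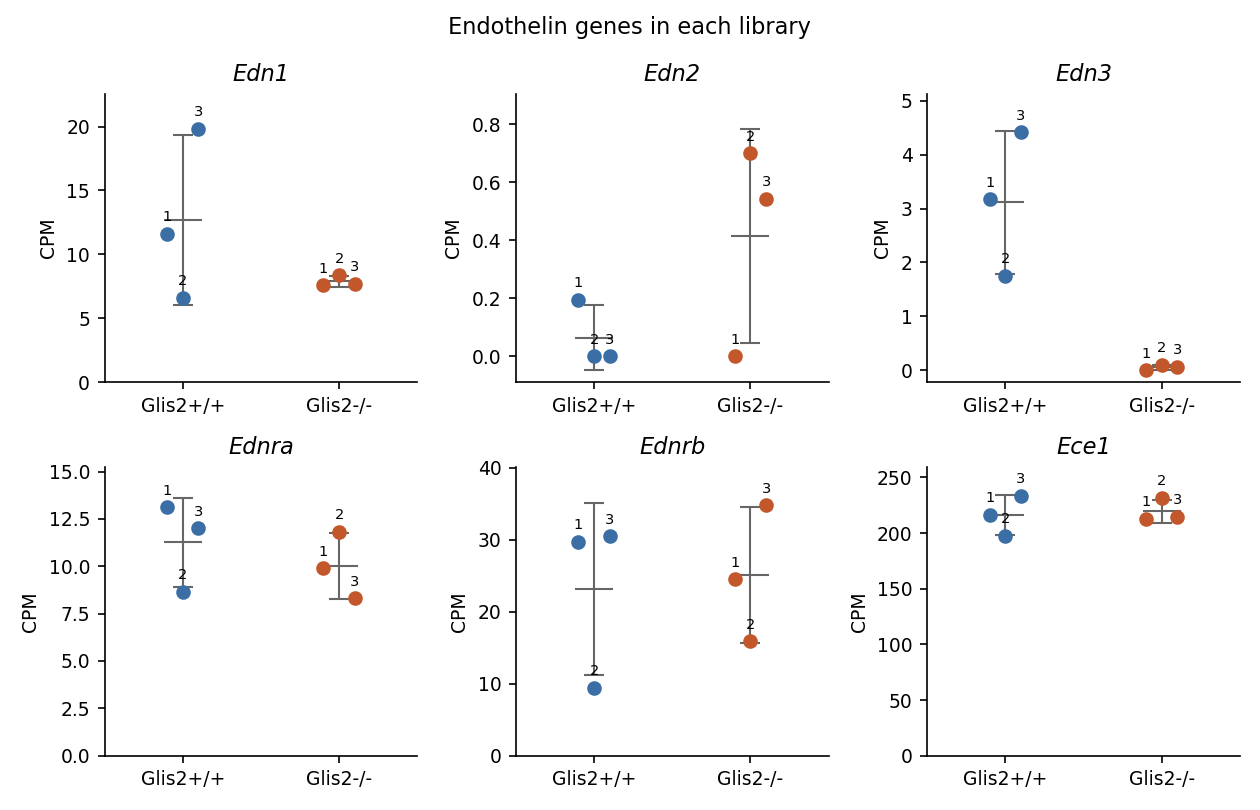
Normalised level (CPM, linear axes from 0 or just under it) of the 6 endothelin genes in each library, with *Glis2*+/+ in blue, *Glis2*-/- in orange and the replicate number beside each point, and with horizontal bars and whiskers for the mean and SD of 3 libraries. *Edn3* is the panel in which the genotypes stand apart, at 1.75 to 4.41 CPM against 0 to 0.100 CPM, while the genotypes overlap in each of the other panels.

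Read against each other within a library, the ligand transcripts showed the loss of *Edn3* as a change of make-up. Levels were compared between genes as TPM values, which are corrected for transcript length, rescaled so that the protein-coding genes of every library have the same sum. On this scale *Edn3* was 3.72, 1.25 and 5.60 in *Glis2*+/+ and 0, 0.136 and 0.111 in *Glis2*-/- libraries. *Edn3* made up 21.4%, 15.0% and 20.3% of the summed ligand level in *Glis2*+/+ libraries and 0%, 1.34% and 1.16% in *Glis2*-/- libraries. In the *Glis2*+/+ libraries its share varied less than its level, as *Edn1* and *Edn3* were both lowest in replicate 2 and highest in replicate 3. *Edn1* held 76.6% to 85.0% of the ligand level in *Glis2*+/+ and at least 87.4% in *Glis2*-/- libraries. The summed ligand level was 17.3, 8.35 and 27.6 in *Glis2*+/+ and 8.38, 10.2 and 9.62 in *Glis2*-/- libraries, so that the sums of the genotypes overlapped. These shares contain the values on which *Edn3* was selected and were not tested.

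**Figure D2:**
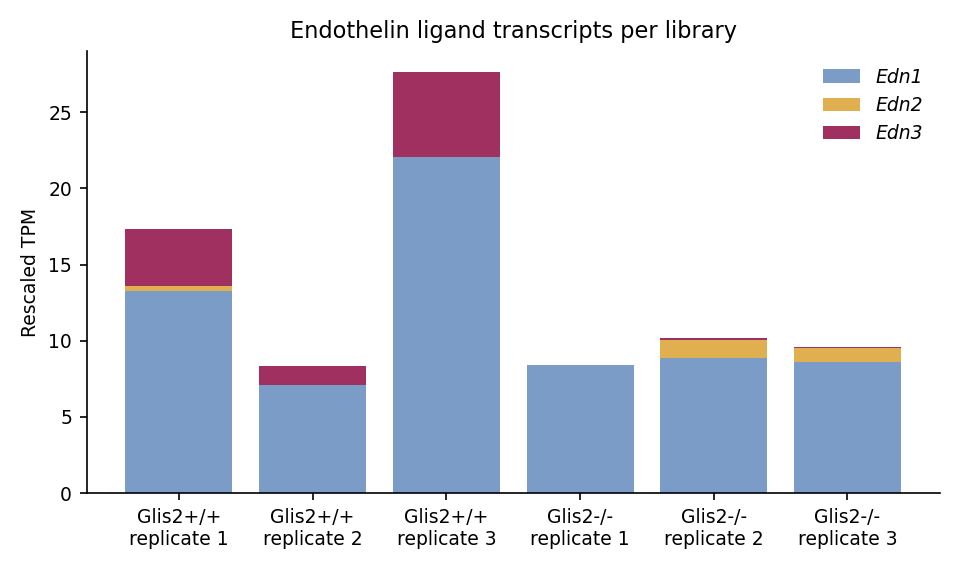
Level of the 3 ligand transcripts (rescaled TPM, linear axis from 0) in each of the 6 libraries, stacked by gene with *Edn1* at the bottom, *Edn2* in the middle and *Edn3* on top. *Edn3* is a visible part of each *Glis2*+/+ bar, 15.0% to 21.4% of its height, and at most 1.34% of a *Glis2*-/- bar, and the total height ranges from 8.35 to 27.6 in *Glis2*+/+ libraries.

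*Ednrb* (ENSMUSG00000022122, chr14:103814625-103844402, minus strand), the receptor gene for all endothelins and the only one here whose product binds endothelin-3 well, did not follow *Edn3*. It stood at 29.8, 9.42 and 30.5 CPM in *Glis2*+/+ and at 24.5, 15.9 and 34.8 CPM in *Glis2*-/- libraries. Replicate 2 was the lowest library of each genotype, and the genotypes overlapped over most of their range. The means were 23.2 ± 12.0 and 25.1 ± 9.48 CPM (SD, n = 3 each), with a log2 fold change of 0.11 (SE 0.44, 95% interval −0.89 to 1.11, edgeR adjusted p = 0.989). The direction was not fixed, with −0.26 without *Glis2*+/+ replicate 2 and −0.22 without *Glis2*-/- replicate 3. The interval is wide enough to hold a change of more than 1.5 times in either direction.

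*Ednra* (ENSMUSG00000031616, chr8:77663031-77724464, minus strand), the gene of the receptor for endothelin-1 and endothelin-2, varied less between mice. It stood at 13.1, 8.65 and 12.0 CPM in *Glis2*+/+ and at 9.91, 11.8 and 8.31 CPM in *Glis2*-/- libraries. The highest library was a *Glis2*+/+ and the lowest a *Glis2*-/- library, and the ranges overlapped. The means were 11.3 ± 2.33 and 10.0 ± 1.76 CPM (SD, n = 3 each), with a log2 fold change of −0.17 (SE 0.24, 95% interval −0.72 to 0.38, edgeR adjusted p = 0.973).

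Corrected for length, *Ednrb* was the higher receptor transcript in each of the 6 libraries. The ratio of *Ednrb* to *Ednra* was 2.19, 1.08 and 2.41 in *Glis2*+/+ and 2.33, 1.18 and 4.21 in *Glis2*-/- libraries. It was lowest in replicate 2 of both genotypes, where the receptors were near parity. *Ednra* accounted for 36.3% ± 10.3 of the receptor level in *Glis2*+/+ and 31.7% ± 13.5 in *Glis2*-/- cells (SD, n = 3 each), a difference smaller than the SD of either genotype.

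*Ece1* (ENSMUSG00000057530, chr4:137862237-137965229, plus strand) was both the highest and the steadiest member. It stood at 217, 198 and 234 CPM in *Glis2*+/+ and at 213, 232 and 215 CPM in *Glis2*-/- libraries. Its highest library was only 1.18 times its lowest, against 3.70 times for *Ednrb* and 3.00 times for *Edn1*. The means were 216 ± 18.1 and 220 ± 10.3 CPM (SD, n = 3 each), with a log2 fold change of 0.026 (SE 0.098, edgeR adjusted p = 0.989). The 95% interval of −0.20 to 0.25 is the narrowest of the members tested, and the sign turned without *Glis2*+/+ replicate 2, at −0.033, and without *Glis2*-/- replicate 2, at −0.020.

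Of the 5 members tested, 0 passed both thresholds (an edgeR adjusted p no higher than 0.05 and a log2 fold change of 0.58 or more in either direction), beside 0% of the 21236 genes tested. Among the 4 of them other than *Edn3*, 0 had an unadjusted p under 0.05, a level reached by 1130 of all genes tested. With DESeq2 and apeglm, 1 member, *Edn3*, passed, beside 0.165% of 27248 genes. With edgeR and no filter on low counts, *Edn3* passed as well, beside 0.108% of 37115 genes. Since *Edn3* was selected on this contrast, nothing is read from either count. The genotypes did not overlap in CPM for 1 member, again *Edn3*, beside 11.7% of all genes tested in either direction and 5.5% with every *Glis2*-/- library lower.

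The mean level over all 6 libraries, as rescaled TPM, ran in the order *Ece1*, *Ednrb*, *Edn1*, *Ednra*, *Edn3*, *Edn2*. *Ece1* stood at 170 (143 to 200 over the libraries), above 94.5% of 19073 protein-coding genes, and overlapped no other member. *Ednrb* followed at 14.7 (5.70 to 22.2) and *Edn1* at 11.4 (7.10 to 22.0), near the middle of all protein-coding genes, and these neighbours overlapped almost completely. *Ednra* at 6.72 (5.27 to 8.59) overlapped the lower end of *Edn1*. *Edn3* averaged 1.80 over all libraries but 3.52 ± 2.18 (SD, n = 3) in *Glis2*+/+ cells, where its highest library, at 5.60, reached the lowest *Ednra* values. In *Glis2*-/- cells alone the last 2 places turned, with *Edn2* at 0.690 ± 0.608 and *Edn3* at 0.0823 ± 0.0723 (SD, n = 3 each). *Edn2*, at 0.402, was below all but 19.1% of protein-coding genes. The level of the converting enzyme was 5.94 to 22.2 times the summed ligand level of the same library.

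Other genes on the way from precursor to receptor response showed no call either, as was so for all 21236 genes tested with edgeR. The list of processing and breakdown holds 10 genes, of which 7 passed the filter, with 3 estimated higher, 4 lower and 0 called, and a median log2 fold change of −0.087 beside 0.011 over all genes tested. Its highest gene was *Furin*, a protease that makes the first cut in the precursors, at 177 ± 26.9 CPM in *Glis2*+/+ and 167 ± 9.07 CPM in *Glis2*-/- cells (SD, n = 3 each). In *Mme*, the gene of neprilysin, a membrane peptidase that degrades endothelins among other peptides, the genotypes did not overlap in CPM. *Mme* stood at 129, 145 and 120 CPM in *Glis2*+/+ and at 159, 160 and 176 CPM in *Glis2*-/- libraries, with a log2 fold change of 0.33 (SE 0.11, edgeR adjusted p = 0.906). *Ctsa*, the gene of the lysosomal carboxypeptidase cathepsin A, which can inactivate endothelin-1, did not overlap in CPM either, at 45.8, 49.6 and 41.8 CPM against 58.8, 60.5 and 60.1 CPM. Its log2 fold change was 0.39 (SE 0.11, edgeR adjusted p = 0.906), and neither gene passed the test. In rescaled TPM the genotypes overlapped for both genes, with means of 91.1 and 95.1 for *Mme* and of 64.3 and 65.2 for *Ctsa*. *Kel*, the gene of the red cell protein Kell, which can process endothelin-3, had 0 counts in all 6 libraries.

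The list of receptor coupling holds the G protein, phospholipase C, calcium release, arrestin and kinase genes through which such receptors signal, and 17 of 17 passed the filter. Of these, 10 were estimated higher, 7 lower and 0 were called, with a median log2 fold change of 0.029. The highest was *Gnai2*, the gene of an inhibitory G protein subunit, at 416 ± 27.4 CPM in *Glis2*+/+ and 424 ± 28.6 CPM in *Glis2*-/- cells (SD, n = 3 each). The genotypes did not overlap in CPM for the G protein genes *Gna11*, *Gna12* and *Gna13*, with log2 fold changes of 0.15, 0.21 and −0.13, and none of them passed the test. In rescaled TPM they overlapped for *Gna11* and *Gna13*. In both lists together the genotypes did not overlap in CPM for 5 of 24 genes, or 20.8%, beside 11.7% of all genes tested.

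**Figure D3:**
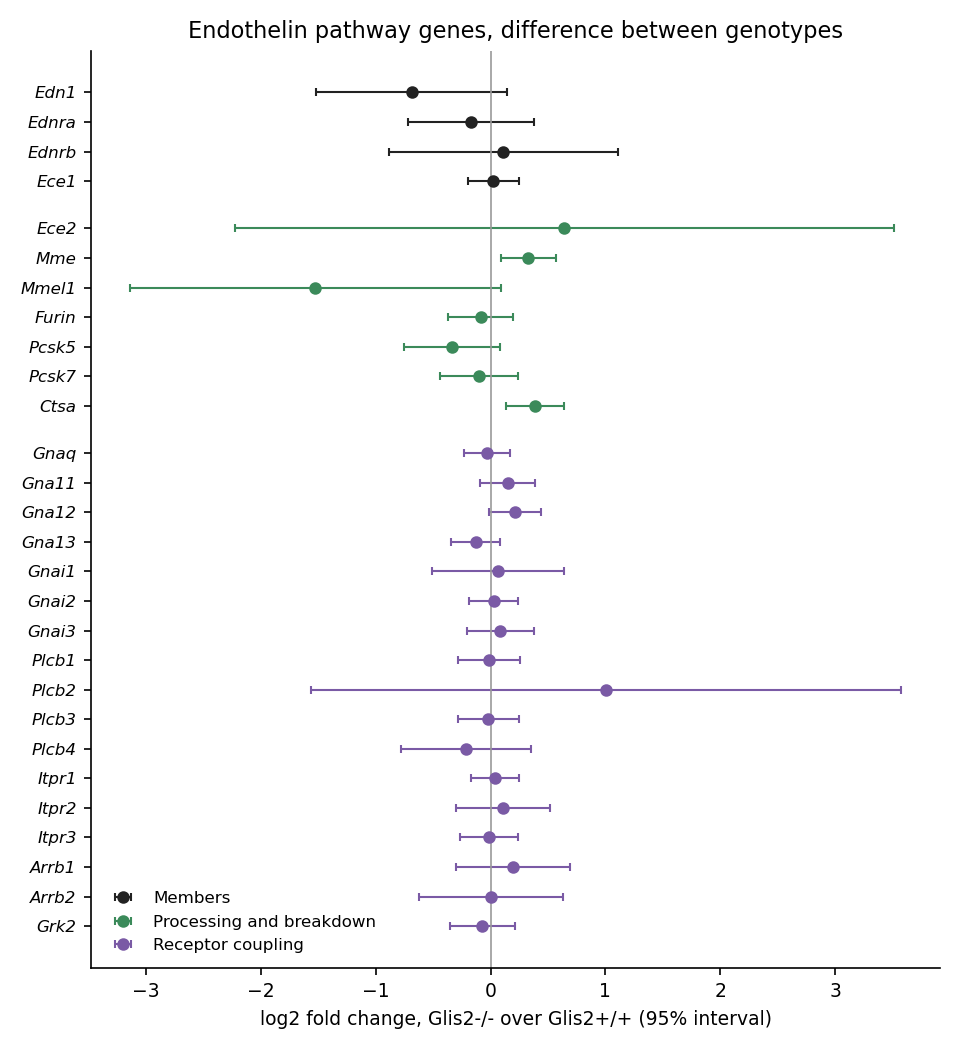
Fitted log2 fold change of *Glis2*-/- over *Glis2*+/+ (points) with its 95% interval (lines) for *Edn1*, *Ednra*, *Ednrb*, *Ece1* and the 24 tested genes of the lists, with the members in black, processing and breakdown in green and receptor coupling in purple. *Edn3*, selected on this contrast, and *Edn2*, left out of the main test by the filter, are not drawn. Most points lie near 0, the intervals of *Mme* and *Ctsa* lie above 0 before adjustment, and the estimates run from −1.53 to 1.01, the ends of this range having wide intervals.

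Markers of the cell types that could carry these transcripts differed in level between the libraries. The 10 endothelial markers, all detected, summed to 930, 193 and 660 CPM in *Glis2*+/+ and to 601, 297 and 919 CPM in *Glis2*-/- libraries, a 4.81-fold range with replicate 2 lowest in each genotype. *Ednrb* moved along, and as a share of the endothelial sum it stayed within 3.20% to 5.35%, a 1.67-fold range. *Ednra* ran from 0.904% to 4.47% and *Edn1* from 0.838% to 3.42% of the same sum, 4.95-fold and 4.09-fold ranges. *Ednrb* thus kept closer to the endothelial level than the other 2 members did. Shares were taken of the endothelial sum only, so they do not set the endothelial markers apart from the other lists. The fibroblast sum was 7488, 2357 and 7837 CPM in *Glis2*+/+ and 4369, 2675 and 6012 CPM in *Glis2*-/- libraries, also lowest in replicate 2 of each genotype. Whether *Ednrb* kept as close to it was not tested. The adipocyte (86.0 to 491 CPM), melanocyte and Schwann cell (269 to 425 CPM) and immune (23.4 to 82.0 CPM) markers were also lowest in *Glis2*+/+ replicate 2. The part of any of these cell types in the *Ednrb* values was not tested.

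**Figure D4:**
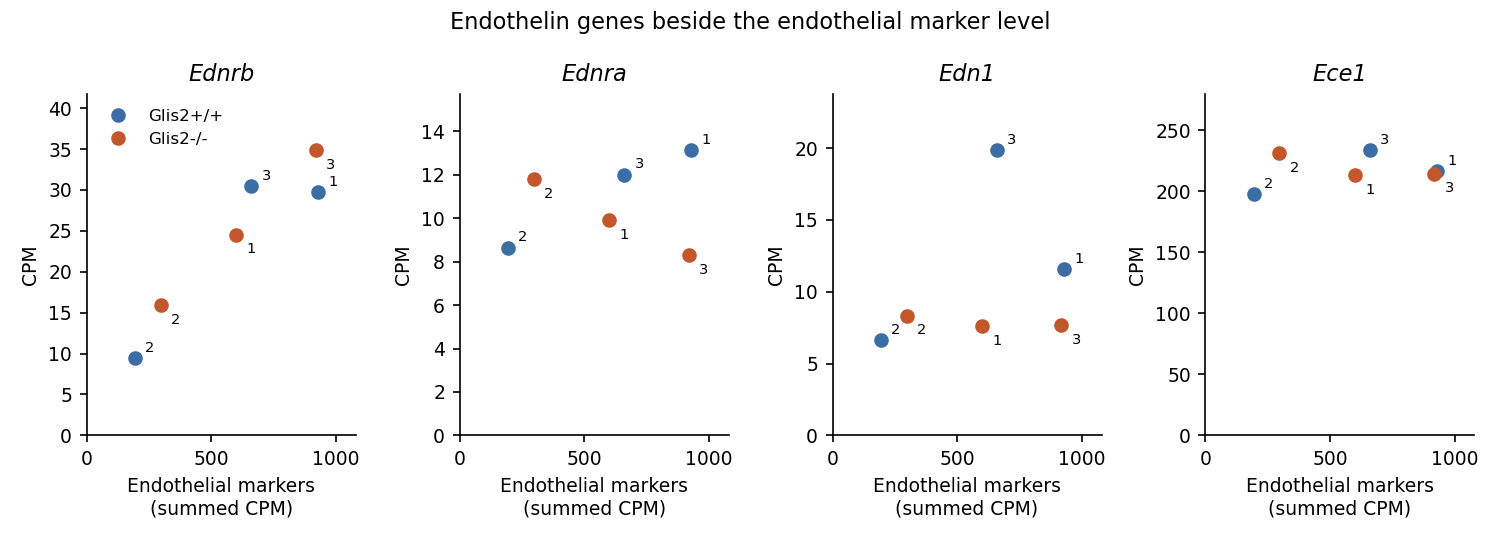
Level of *Ednrb*, *Ednra*, *Edn1* and *Ece1* (CPM, y axes from 0) against the summed CPM of 10 endothelial markers (x axis) in the 6 libraries, with *Glis2*+/+ in blue, *Glis2*-/- in orange and replicate numbers beside the points. *Ednrb* is at 9.42 CPM where the markers are lowest, at 193 CPM, and at 29.8 and 34.8 CPM where they are highest, at 930 and 919 CPM, while *Ece1* stays between 198 and 234 CPM over the same span.

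For *Edn3*, the markers of other cells were set beside its values in the same way. The basal markers were the only list whose sum did not overlap, at 6489, 5873 and 5009 CPM in *Glis2*+/+ and 6959, 6637 and 8046 CPM in *Glis2*-/- libraries. All 10 basal markers were estimated higher in *Glis2*-/- cells, with a median log2 fold change of 0.38 and 0 called. The same test called 0 of all 21236 genes, so 0 calls sets no marker list apart. The 12 markers of melanocytes and Schwann cells, the neural crest derivatives, each had counts in at least 1 library, though *Tyr*, *Tyrp1* and *Mlana*, markers of pigment cells, did not pass the filter, and they summed to 425, 269 and 374 CPM against 280, 284 and 310 CPM. The 8 pericyte and vascular muscle markers, all detected, summed to 635, 349 and 509 CPM against 352, 334 and 478 CPM, and all 8 were estimated lower in *Glis2*-/- cells with 0 called. The sums of the luminal (4086 to 7236 CPM) and endothelial markers spanned like ranges in both genotypes. The fibroblast sums were 7488, 2357 and 7837 CPM against 4369, 2675 and 6012 CPM, and ranked the *Glis2*+/+ libraries as *Edn3* did. The adipocyte sums were 491, 86.0 and 374 CPM against 243, 138 and 378 CPM. Of its 7 tested genes, 6 were estimated lower and 1 higher. The immune sums were 44.0, 23.4 and 39.0 CPM against 47.2, 42.2 and 82.0 CPM. None of these lists fell by an amount near that of *Edn3*, and their part in its values was not tested.

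The pattern of *Edn3* over the libraries was compared with that of 13749 protein-coding genes of at least 1 CPM, by Pearson's r of log2(CPM + 0.5) over the 6 libraries, which share their genotype split and their depths. The most alike were *Cyp51* (r = 0.983), the sterol demethylase gene of cholesterol synthesis, *Prpf31* (r = 0.980), a splicing factor gene, *Dpf3* (r = 0.978), the gene of a chromatin remodelling subunit, *Tpr* (r = 0.977), a nuclear pore gene, and *Zfp407* (r = 0.975), a zinc finger gene. Their differences were much smaller than that of *Edn3*. *Cyp51*, the first of them, stood at 31.0, 25.7 and 33.1 CPM in *Glis2*+/+ and at 14.1, 17.4 and 17.8 CPM in *Glis2*-/- cells, which is 54.8% of the *Glis2*+/+ mean.

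Around *Edn3* on chromosome 2, protein-coding genes within 250 kb that passed the filter were *Zfp831*, which ends 49787 bases before it, and *Gm14444*, which starts 226199 bases after it. Their log2 fold changes were 0.29 (SE 0.47, edgeR adjusted p = 0.975) and 1.70 (SE 1.67, edgeR adjusted p = 0.946). *Zfp831* thus showed no fall like that of *Edn3*. *Gm14444* had 19, 0 and 0 counts in *Glis2*+/+ and 38, 16 and 1 counts in *Glis2*-/- libraries, too few in *Glis2*+/+ to show such a fall. No annotated gene overlaps *Edn3*, *Edn2* or *Ednrb*. *Edn1*, *Ednra* and *Ece1* each overlap 1 gene on the opposite strand, *Gm47118*, *4933431K23Rik* and *Gm13012*, with at most 20 counts in any library. The RefSeq promoters of the 6 members (GRCm38.p6, 9 windows of 300 bases, 250 before to 50 after a start) were searched on both strands for TGGGGGGT, the core of the GLIS motif, and GACCACCCA, the GLI motif. Neither occurred in any of the 9 windows, beside 1.53% and 0.253% of 32851 promoters, and this says only that these letters are not in these windows.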

How the data were processed

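RNA was measured in mammary epithelial cells sorted from 3 *Glis2*+/+ and 3 *Glis2*-/- mice. The authors estimated counts per gene with Salmon 1.2.1 on mm10 transcripts and summed them with tximport, and the deposited counts are whole numbers without normalization. The authors also deposited TPM on a log2 scale, offset by 1, which were converted back here and rescaled to protein-coding genes (8.98% to 11.4% of TPM per library). Groups follow the labels. The members and gene lists were chosen with earlier results of these data known.

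Differences were fitted with edgeR 4.0.16 in R 4.3.3 (TMM, filterByExpr, quasi-likelihood test, Benjamini-Hochberg adjustment over 21236 genes), without a replicate block. Deviations from the genotype means correlated little between libraries of the same replicate number (−0.022, 0.17 and 0.023). Such correlations cannot show that the mice were unpaired. The functions were tested on simulated data. Alternatives were DESeq2 1.42.0 with apeglm 1.24.0, DESeq2 size factors, no filter, at least 10 counts in every library, limma 3.58.1 on log2 TPM (offset 1 or 0.1), blocking on the replicate number, and omission of every mouse in turn. Leaving out both replicates 2 was added after seeing the data. Named genes are the members, genes of the pathway lists that were called, did not overlap between genotypes or were highest, the 5 genes most like *Edn3*, its tested protein-coding neighbours within 250 kb, genes overlapping a member, *Glis2*, and marker genes whose values stand beside a result. *Kel* and the markers *Krt8*, *Krt14*, *Pecam1*, *Tyr*, *Tyrp1*, *Mlana*, *Mitf*, *Dct* and *Pmel* were chosen after their values were seen. Sequences and motifs were read from GENCODE M21 and RefSeq files of GRCm38, the build of the authors' files, whose annotation was a later release.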

Additional observations from a re-analysis of the deposited data

How the results depend on the processing

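Over 14 alternatives, the number of members passing both thresholds was 0 in 12 and 1 in the other two, DESeq2 with apeglm and edgeR with no filter on low counts, the 1 being *Edn3* each time, which was selected on this contrast, so that the call supports nothing. DESeq2 with apeglm shrank the log2 fold changes of *Edn1* and *Ednra* to −5.4e-06 and −2.4e-06, too near 0 to give a direction, and under the other 13 alternatives both were below 0. That of *Ednrb* turned to −0.025 with log2(TPM + 1), −0.0093 with log2(TPM + 0.1) and −0.025 without both replicates 2, and ran from −0.26 to 0.36 with each mouse left out. That of *Ece1* turned to −0.050, −0.054 and −0.081 under the same settings, and ran from −0.033 to 0.086 with each mouse left out. The cause was not tested. With a replicate block, 0 members were called, and the log2 fold changes of *Edn1* and *Ednrb* were −0.55 (SE 0.34) and 0.22 (SE 0.22). The SE of *Ednrb* was 0.44 without the block. With log2(TPM + 0.1) the median over all genes was −0.14, below the values of *Ednrb* and *Ece1*. The order of the 6 mean levels over all libraries was the same in TPM that were not rescaled and with each mouse left out.

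At least 10 counts in every library left no value for *Edn3*. Its *Glis2*-/- level rests on 5 counts in all, and that of *Edn2* on counts in 3 libraries, so that depth limits both. The fitted log2 fold change of *Edn3*, −5.67 in edgeR, was −0.43 with a TPM offset of 1. It ran from −6.32 to −5.18 in edgeR with each mouse left out.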
